A study of Mus musculus with 6 samples.

Results

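Genes of the endosomal sorting machinery were followed in RAW264.7, a line of mouse macrophages that turns into osteoclasts under the cytokine RANKL. The set was chosen by gene symbol: every Chmp1 to Chmp7, numbered Vps and numbered Snx gene in the deposited tables, without pseudogenes, together with Tsg101, Mvb12a, Mvb12b, Pdcd6ip and Ist1. This gave 80 of 55291 genes, of which 77 had enough counts to be tested. The shUSP8 group (n = 3 libraries, shUSP8_1 to shUSP8_3) carried a short hairpin RNA against Usp8, the gene of a deubiquitinating enzyme that acts on endosomes, and the shCtrl group (n = 3, shCtrl_1 to shCtrl_3) carried a control hairpin. Both groups are the same cell line, and both received RANKL at 50 ng/mL for 4 days before RNA was sequenced. The labels do not give the number of hairpins, so a result of the shUSP8 group cannot be told apart from a property of the hairpin. Nor do they tell separate cultures from repeat libraries, so p-values measure only how far these libraries spread, and part of that spread may be technical.

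ESCRT complexes sort ubiquitin-tagged membrane proteins into vesicles inside the endosome, for delivery to the lysosome. ESCRT-I and ESCRT-II gather cargo and shape the membrane, and ESCRT-III filaments, taken apart by the VPS4 ATPases, cut the vesicle off. Retromer and the sorting nexins return other cargo to the plasma membrane or the Golgi, and the HOPS and CORVET complexes tether endosomes and lysosomes before they fuse. USP8 removes ubiquitin from cargo at this step and binds ESCRT-III proteins through its MIT domain. In osteoclasts the same traffic carries proton pumps and hydrolases to the bone-facing membrane, and loss of SNX10 or of the HOPS partner PLEKHM1 causes osteopetrosis, a disease of dense bone, in humans.

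Library totals lay between 19973522 and 20142107 expected counts in shUSP8 and between 20121644 and 20213939 in shCtrl. Usp8 itself had 32.0, 34.8 and 35.1 CPM in shUSP8 and 141.0, 129.4 and 136.7 CPM in shCtrl (CPM are counts divided by TMM-scaled library size), without overlap (log2 fold change -2.00, SE 0.06, adjusted p = 1.47e-10, edgeR). The library shUSP8_2 stood apart in its estimated mean fragment length, 368.3 nt, against 291.8 to 309.2 nt in the other libraries. Of the macrophage markers tested, 4 of 8 were called higher and 3 lower, where 17.8% of all genes tested were called higher and 14.9% lower. Their summed level was 6777 to 7315 TPM in shUSP8 and 4670 to 4995 TPM in shCtrl (TPM, a level per transcript length). Much of that gap was Lyz2, with a mean of 3277 TPM in shUSP8 and 939.1 TPM in shCtrl. Adgre1, Itgam and Cd14 were also called higher, and Cd68, Csf1r and Spi1 were called lower. Of the osteoclast markers, 5 of 10 were called lower and none higher with TMM factors, with sums of 9453 to 9795 TPM in shUSP8 and 9986 to 10861 TPM in shCtrl. Neutrophil markers summed to 4.82 to 5.31 TPM in shUSP8 and 1.72 to 2.57 TPM in shCtrl, with Ly6g, Elane and Camp at 0 counts. The 1 of 6 that was tested, S100a8, was called higher (adjusted p = 0.0468, edgeR). S100a8 had only 18, 11 and 14 counts in shUSP8 and 8, 7 and 5 in shCtrl. Its call was lost under 8 of 15 alternative fits, DESeq2 among them. Lymphocyte markers summed to 0.07 to 0.14 TPM in shUSP8 and 0 to 0.05 TPM in shCtrl, with Ms4a1, Cd3e and Cd3d at 0 counts. Stromal markers summed to 2.25 to 3.40 TPM in shUSP8 and 2.57 to 3.91 TPM in shCtrl, with Alpl at 0 counts, and none of the 3 tested was called. In bulk RNA, fewer cells of a kind and less RNA per cell cannot be told apart.

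The endosomal sorting genes moved in both directions and by little. Of the 77 tested, 15 rose and 12 fell at an adjusted p under 0.05 (edgeR, all genes adjusted together), and 50 did not pass the test. That is 35.1% called, against 32.8% of all 12440 genes tested, so the share lies near the background. By direction, 17.8% of all genes tested were called higher and 14.9% lower. The median log2 fold change of the 77 was -0.02, against -0.00 over all genes. None was called with a change of 2-fold or more, against 5.35% of all genes, and 18 of the 27 called members changed by less than 1.25-fold. Without shUSP8_2, 13 rose and 11 fell. The number called was 17 without shCtrl_1 or without shCtrl_2, and 18 without shUSP8_3.

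Groups did not overlap in CPM for 36 of the 77 (46.8%), against 47.7% of all genes. The call held with each library left out in turn for 14 members, Mvb12b, Chmp1b, Chmp2a, Vps39, Vps13c, Snx6, Snx10, Snx14, Snx18, Snx20, Snx24, Snx27, Snx29 and Snx30. Over all genes, 19.98% were called and held in this way. The other 3 members had too few counts to be tested. Snx31 had 0 counts in each library, which allows up to 3 counts in each, Vps37d had 0 or 1, and Snx22 had 4.54 to 9.92.

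**Figure D1:**
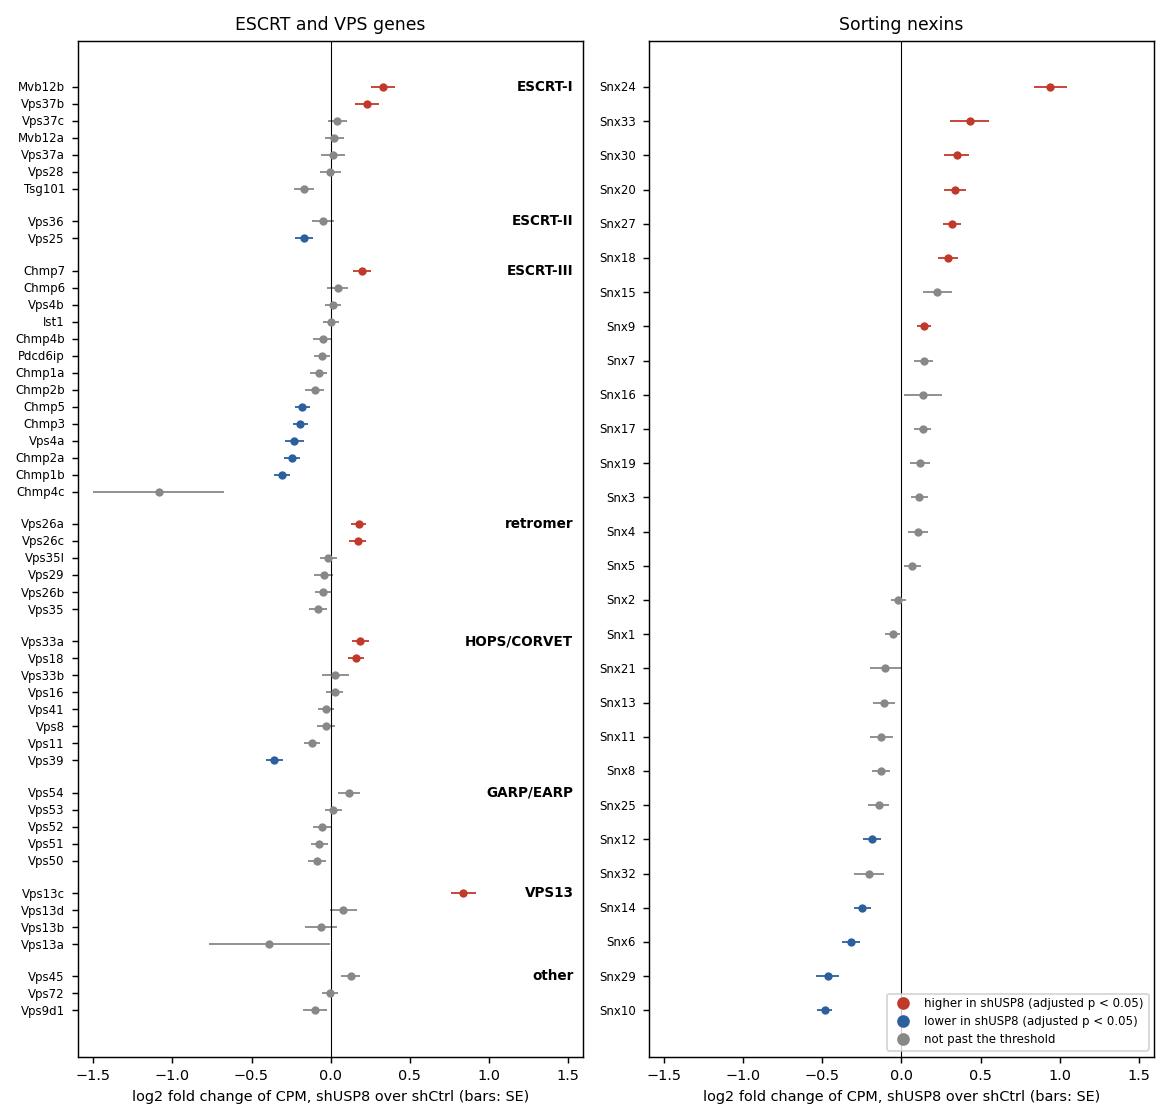
Fitted log2 fold change (horizontal axis, shUSP8 over shCtrl) of the 77 tested genes, by complex on the left and for the sorting nexins on the right. Points are edgeR estimates with bars of 1 SE, red for the 15 called higher, blue for the 12 called lower and grey for the 50 not past the threshold. Snx24, at 0.94, and Vps13c, at 0.84, lie far to the right of the rest.

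Directions depended on the scale. With TMM factors the members split into 15 higher and 12 lower, with library totals alone into 21 higher and 7 lower, and on log2(TPM + 1), tested with limma, into 17 higher and none lower. Over all genes, 3111 were called higher and 1172 lower with library totals, and 2379 higher and 500 lower on log2(TPM + 1). The all-gene median lay at 0.11 on log2(TPM + 1) and at 0.07 with library totals, so values on these scales are read against that shift. On log2(TPM + 1), 23.1% of all genes were called. The 12 members that fell on the TMM scale had log2(TPM + 1) differences of -0.53 to 0.03, and the smallest of their adjusted p-values was 0.0624. Relative to the all-gene median on that scale, the 12 lay between -0.64 and -0.08. Of the 15 that rose, 13 were called on log2(TPM + 1) as well. Offsets that correct each gene's count for its effective length in each library left 10 of the 12 falls and 9 of the 15 rises called, where 22.1% of all genes were called, and they added 0 other members.

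**Figure D2:**
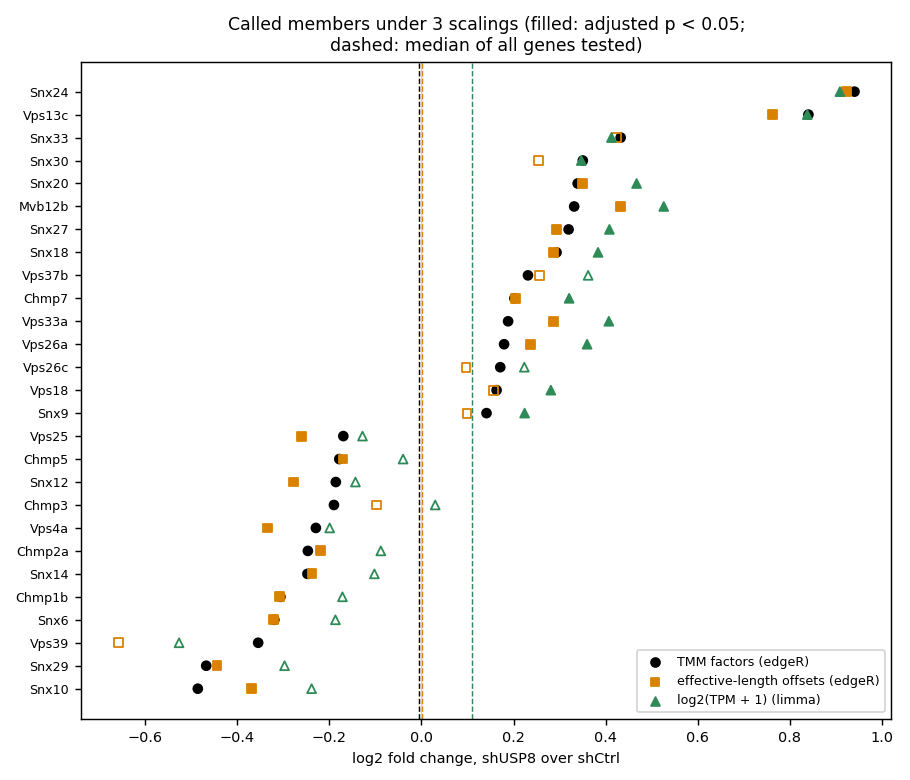
Log2 fold change (horizontal axis, shUSP8 over shCtrl) of the 27 called genes under 3 scalings, with filled symbols for an adjusted p under 0.05. Dashed lines mark the median of all genes on each scale. On log2(TPM + 1), the symbols of the 12 lower genes are open, and the all-gene median is at 0.11.

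Summed over the set, levels changed little. The sums are in TPM and are not corrected for the all-gene median of 0.11 on log2(TPM + 1). The 80 genes summed to 3402, 3491 and 3596 TPM in shUSP8 and 3398, 3308 and 3143 TPM in shCtrl, a ratio of means of 1.07, and the lowest shUSP8 library lay only just above the highest shCtrl library. ESCRT-III genes, with their ATPases and ALIX, summed to 926.3 ± 18.6 TPM in shUSP8 and 902.7 ± 42.1 TPM in shCtrl (SD, n = 3 each). Sorting nexins summed to 1082 ± 28.1 TPM in shUSP8 and 1001 ± 39.6 TPM in shCtrl, and retromer and retriever genes to 388.9 ± 10.5 TPM in shUSP8 and 342.7 ± 11.9 TPM in shCtrl. The VPS13 lipid transfer genes had the smallest sum, 58.0 ± 5.78 TPM in shUSP8 and 45.2 ± 5.46 TPM in shCtrl. Among tested genes, the mean level ran up to that of Chmp4b, the main filament subunit of ESCRT-III, at 167.9 TPM in shUSP8 and 156.5 TPM in shCtrl.

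In ESCRT-I, 2 of 7 tested genes rose and none fell, 28.6% called against 32.8% of all genes tested. Mvb12b, a subunit that binds ubiquitin and membrane, had 46.6, 46.3 and 44.8 CPM in shUSP8 and 38.9, 38.5 and 32.0 CPM in shCtrl. All shUSP8 libraries lay above all shCtrl libraries (log2 fold change 0.33, SE 0.08, adjusted p = 0.00518), and the call held under all 15 alternatives tried. These include log2(TPM + 1), where no member was called lower, so here and below only rises held under all 15. The share of all genes that held in this way was not counted. Vps37b, one of several interchangeable subunits, had 33.7, 29.8 and 33.2 CPM in shUSP8 and 28.2, 28.7 and 25.4 CPM in shCtrl. Here too the groups did not overlap, though shUSP8_2 lay close to shCtrl_2 (log2 fold change 0.23, SE 0.07, adjusted p = 0.0322). The Vps37b call was lost without shUSP8_1 (0.0548), shUSP8_3 (0.104), shCtrl_1 (0.0595), shCtrl_2 (0.056) or shCtrl_3 (0.127), with DESeq2 (0.0792), with effective-length offsets (0.0965) and on log2(TPM + 1) (0.0527), each value in brackets being the adjusted p.

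Tsg101, the core subunit that recognises ubiquitinated cargo, had 62.5, 56.4 and 56.8 CPM in shUSP8 and 64.2, 62.4 and 70.6 CPM in shCtrl. The groups overlapped through shUSP8_1, and the gene did not pass the test (-0.17, SE 0.06, adjusted p = 0.0647). Without shUSP8_1 the adjusted p was 0.0136, and without the filter on low counts it was 0.0315. Its pseudogene Tsg101-ps was left out of the set. Mvb12a, the most abundant of the group per length, stood at 95.8 TPM in shUSP8 and 84.9 TPM in shCtrl, with a log2 fold change of CPM of 0.02 (adjusted p = 0.795). The remaining ESCRT-I genes, Vps28, Vps37a and Vps37c, were at -0.00, 0.02 and 0.04.

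ESCRT-II had 2 members in the set. Vps25 had 53.3, 48.7 and 49.4 CPM in shUSP8 and 58.4, 55.2 and 56.6 CPM in shCtrl, without overlap (-0.17, SE 0.06, adjusted p = 0.0381). Its call was lost without shUSP8_2 (0.0948), shUSP8_3 (0.126), shCtrl_1 (0.131), shCtrl_2 (0.0728) or shCtrl_3 (0.0855), with DESeq2 (0.0967), with library totals (0.225) and on log2(TPM + 1) (0.178). Vps36, the subunit that binds ubiquitin and ESCRT-I, was at 12.97 TPM in shUSP8 and 12.1 TPM in shCtrl, with a log2 fold change of CPM of -0.05 (adjusted p = 0.638).

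Among the 14 ESCRT-III genes, counted with the VPS4 ATPases, Ist1 and ALIX, 5 fell and 1 rose with TMM factors, and none fell on log2(TPM + 1). With TMM factors 42.9% of them were called, against 32.8% of all genes tested. Chmp1b, which forms a filament coat together with Ist1, had 67.3, 68.2 and 67.8 CPM in shUSP8 and 79.1, 84.7 and 87.7 CPM in shCtrl. The shUSP8 values lay close together and below every shCtrl value (-0.31, SE 0.05, adjusted p = 0.000866). Chmp2a, a core subunit, had 69.0, 64.2 and 67.5 CPM in shUSP8 and 80.8, 79.0 and 78.4 CPM in shCtrl. Again the groups stood apart (-0.25, SE 0.05, adjusted p = 0.00272).

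Chmp3, its partner in the core filament, had 77.7, 73.5 and 76.6 CPM in shUSP8 and 87.2, 87.4 and 85.4 CPM in shCtrl, without overlap (-0.19, SE 0.05, adjusted p = 0.0103). On log2(TPM + 1) the sign of Chmp3 turned, to 0.03, and its call was lost without shCtrl_2 (0.0523), with effective-length offsets (0.405), with library totals (0.0981) and on log2(TPM + 1) (0.825). Chmp5, which in mice restrains NF-kB signalling in osteoclasts, was at 67.7 ± 1.59 CPM in shUSP8 and 76.6 ± 0.563 CPM in shCtrl (log2 fold change -0.18, SE 0.05, adjusted p = 0.0141). The Chmp5 call was lost without shUSP8_3 (0.0654), shCtrl_1 (0.055) or shCtrl_2 (0.0566), with library totals (0.135) and on log2(TPM + 1) (0.643). The riser was Chmp7, which brings ESCRT-III to the nuclear envelope, at 49.6 ± 1.87 CPM in shUSP8 and 43.2 ± 0.951 CPM in shCtrl (0.20, SE 0.06, adjusted p = 0.0168). Its call was lost without shCtrl_1 (0.0671) or shCtrl_2 (0.0657) and with DESeq2 (0.058).

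The ATPases that dismantle ESCRT-III gave unlike values. Vps4a had 52.4, 49.7 and 46.6 CPM in shUSP8 and 56.6, 58.2 and 59.7 CPM in shCtrl, without overlap (-0.23, SE 0.06, adjusted p = 0.0102). The Vps4a call was lost without shUSP8_3 (0.057), with library totals (0.0582) and on log2(TPM + 1) (0.0774). Vps4b had 111.5, 114.2 and 118.4 CPM in shUSP8 and 111.8, 110.2 and 118.5 CPM in shCtrl, and the groups overlapped (0.01, SE 0.05, adjusted p = 0.85). Part of the Vps4a exons overlap Pdf on the other strand, and whether counting used strand is not given in the sources used here.

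The other ESCRT-III genes did not pass the test. Chmp4b, at the level given above, had a log2 fold change of CPM of -0.05 (adjusted p = 0.553). Pdcd6ip, which encodes ALIX, an adaptor that can start ESCRT-III assembly, was at 307.9 ± 13.7 CPM in shUSP8 and 319.7 ± 7.84 CPM in shCtrl. Chmp4c, at 0.0967 TPM in shUSP8 and 0.197 TPM in shCtrl, had the lowest fitted value of the set (-1.09, SE 0.42, adjusted p = 0.0641), and without shUSP8_2 its adjusted p was 0.0391. Its exons overlap those of Snx16 on the opposite strand, and Chmp4c averaged 10.7 counts against 177.2 for Snx16 over the 6 libraries, so its counts are uncertain.

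**Figure D3:**
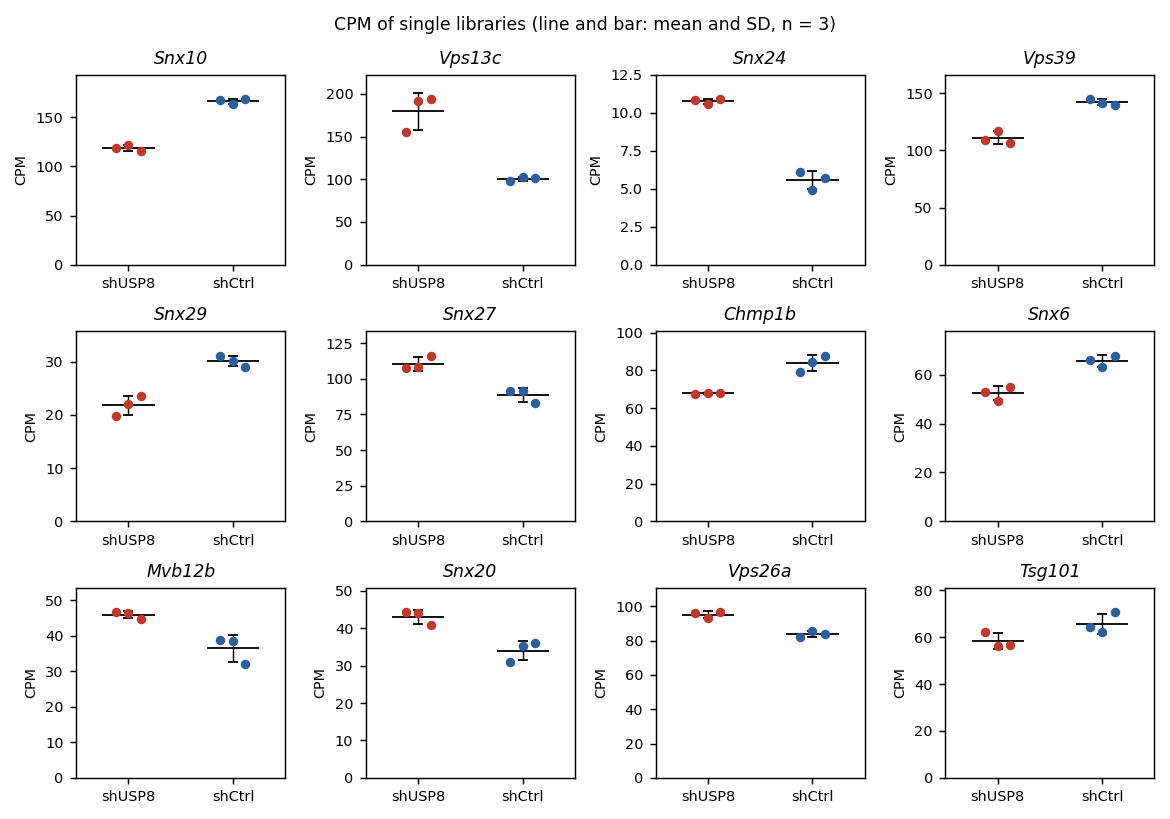
CPM (vertical axis from 0) of Snx10, Vps13c and 10 other genes in each of the 6 libraries, shUSP8 in red left of shCtrl in blue, with the mean as a line and the SD as a bar. In Tsg101 the groups overlap, and in the other panels they do not.

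In retromer and its relative retriever, 2 of 6 genes rose and none fell, 33.3% called against 32.8% of all genes tested. Vps26a, an arrestin-like subunit of retromer on chromosome 10 at 62455235 to 62486805 (GRCm38, minus strand), had 96.1, 93.3 and 96.5 CPM in shUSP8 and 82.4, 86.0 and 84.1 CPM in shCtrl. The groups were well separated (0.18, SE 0.05, adjusted p = 0.0127), and the call was lost without shCtrl_1 (0.0635). Vps26c, the matching subunit of retriever, had 67.9, 64.2 and 63.4 CPM in shUSP8 and 56.5, 56.1 and 61.0 CPM in shCtrl, without overlap (0.17, SE 0.06, adjusted p = 0.0339). The call of Vps26c was lost without shUSP8_1 (0.0693), shUSP8_3 (0.0551), shCtrl_1 (0.122) or shCtrl_2 (0.15), with DESeq2 (0.0981), with effective-length offsets (0.379), on log2(TPM + 1) (0.0596) and with the replicate block (0.0555). Vps35, the scaffold of retromer, had 179.7, 204.8 and 194.7 CPM in shUSP8 and 196.6, 201.3 and 213.5 CPM in shCtrl. Its groups overlapped (-0.08, SE 0.06, adjusted p = 0.34). Vps29, the most abundant of the group per length at 112.4 TPM in shUSP8 and 100.5 TPM in shCtrl, was at -0.04 in CPM (adjusted p = 0.614).

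Of the 8 genes grouped here under HOPS and CORVET, 2 rose and 1 fell, 37.5% called against 32.8% of all genes tested. The 8 include Vps33b, a paralogue of the HOPS and CORVET subunit Vps33a. Vps39, a HOPS subunit that binds RAB7 on late endosomes, lies on chromosome 2 at 120316461 to 120353137, minus strand, and had 109.4, 117.2 and 106.6 CPM in shUSP8 and 144.7, 141.9 and 139.5 CPM in shCtrl. The shUSP8 libraries were clearly lower (-0.35, SE 0.05, adjusted p = 0.000235). Per length, the same gene had 37.1, 34.5 and 57.1 TPM in shUSP8 and 50.1, 69.8 and 64.0 TPM in shCtrl, and there the groups overlapped. Its effective length, relative to the median gene of each library, was 1.75, 2.04 and 1.19 in shUSP8 and 1.67, 1.14 and 1.17 in shCtrl, so the estimated mix of Vps39 transcripts varied within groups. The fitted fall was larger with effective-length offsets (-0.66) and on log2(TPM + 1) (-0.53), while the adjusted p was 0.0581 and 0.107, past the threshold in neither.

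Vps33a, the HOPS and CORVET subunit that helps SNARE proteins assemble, had 105.3, 116.9 and 112.2 CPM in shUSP8 and 99.4, 96.7 and 97.5 CPM in shCtrl, without overlap (0.19, SE 0.05, adjusted p = 0.016). The call of Vps33a was lost without shUSP8_3 (0.0565), shCtrl_2 (0.076) or shCtrl_3 (0.0523). Vps18, a core subunit of both complexes, had 142.6, 152.6 and 142.8 CPM in shUSP8 and 128.2, 135.6 and 127.4 CPM in shCtrl, also without overlap (0.16, SE 0.05, adjusted p = 0.029). That call was lost without shUSP8_2 (0.0742), shUSP8_3 (0.0551), shCtrl_1 (0.108) or shCtrl_3 (0.0975), with DESeq2 (0.0553) and with effective-length offsets (0.058). Vps11, another core subunit, was at 53.1 TPM in shUSP8 and 52.9 TPM in shCtrl, with a log2 fold change of CPM of -0.12 (adjusted p = 0.105). The CORVET subunit Vps8 and the HOPS subunit Vps41 were each at -0.03.

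Promoter windows from RefSeq (GRCm38.p6), 250 bases before to 50 after a transcription start, were matched by symbol for 54 of the 80 genes. The motif TCACGTGA, the core of the site bound by TFEB and TFE3, factors that drive lysosomal genes, was searched on both strands, which for this palindrome hold the same letters. It was present in windows of 4 of the 54 genes, Vps26a, Vps33a, Vps16 and Pdcd6ip. Genes can have several windows, and 5 of the 65 windows of the set (7.69%) held the motif, against 0.975% of all 32817 windows. The 5 include a further window of Vps26a, at chr10:62486549-62486848 (minus strand), which is not printed. The 32817 windows were not limited to genes tested here. Of these 4 genes, Vps26a and Vps33a rose and the other two were not called, with Vps16, a HOPS and CORVET core subunit, at 0.03 (adjusted p = 0.739) and Pdcd6ip at -0.05 (adjusted p = 0.456). Their windows are shown because these genes carry the motif, which is in capitals, read 5′ to 3′ on the strand of the gene. They lie at chr10:62486756-62487055 (minus strand), chr5:123572966-123573265 (minus), chr2:130424070-130424369 (plus) and chr9:113708210-113708509 (minus), in the order printed.
Vps26a: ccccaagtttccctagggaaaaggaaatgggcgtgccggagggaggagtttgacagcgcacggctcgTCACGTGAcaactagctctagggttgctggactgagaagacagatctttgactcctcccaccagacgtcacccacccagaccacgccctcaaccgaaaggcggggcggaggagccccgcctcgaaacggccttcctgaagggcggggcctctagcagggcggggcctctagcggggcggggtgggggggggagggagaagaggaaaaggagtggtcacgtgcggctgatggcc
Vps33a: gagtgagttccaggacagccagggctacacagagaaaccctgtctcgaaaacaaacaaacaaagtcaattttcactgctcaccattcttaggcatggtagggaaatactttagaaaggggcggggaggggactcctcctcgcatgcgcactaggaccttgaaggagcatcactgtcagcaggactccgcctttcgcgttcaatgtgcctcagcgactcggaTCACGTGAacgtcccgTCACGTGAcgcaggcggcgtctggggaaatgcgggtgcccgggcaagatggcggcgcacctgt
Vps16: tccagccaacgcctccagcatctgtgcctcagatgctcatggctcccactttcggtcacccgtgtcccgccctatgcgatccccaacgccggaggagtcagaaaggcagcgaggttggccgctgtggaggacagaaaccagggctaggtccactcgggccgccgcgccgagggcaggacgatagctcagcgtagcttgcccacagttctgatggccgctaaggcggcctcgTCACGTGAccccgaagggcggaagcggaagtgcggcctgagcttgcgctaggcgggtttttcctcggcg
Pdcd6ip: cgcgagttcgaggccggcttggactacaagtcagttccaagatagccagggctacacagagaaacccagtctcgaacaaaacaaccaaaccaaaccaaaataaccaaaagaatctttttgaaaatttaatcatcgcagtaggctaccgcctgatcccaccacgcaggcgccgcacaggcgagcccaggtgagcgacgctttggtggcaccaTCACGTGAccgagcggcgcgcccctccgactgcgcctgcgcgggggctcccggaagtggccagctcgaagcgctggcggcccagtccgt
In the windows printed, the first match began at position -183 from the start site in Vps26a, -29 in Vps33a, -19 in Vps16 and -39 in Pdcd6ip. In the Vps26a window not printed, the match began at -152 from the start site of that window. The wider E-box CACGTG, which every TCACGTGA contains, was in 13.8% of the 65 windows of the set and 7.15% of all windows. The core of the interferon response element was in 4.62% of the set's windows and 3.43% of all, TGANTCA, an AP-1 site, in 7.69% and 7.81%, and GGAAGT, an ETS site, in 27.7% and 23.8%, each searched on both strands. A match describes letters in the window and does not show binding.

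Among the VPS13 proteins, which carry lipids between membranes at contact sites, 1 of 4 rose. Vps13c, found where the endoplasmic reticulum touches late endosomes and lysosomes and mutated in an inherited human Parkinson disease, had 154.8, 191.0 and 193.5 CPM in shUSP8 and 97.7, 102.3 and 101.0 CPM in shCtrl. Even the lowest shUSP8 library lay well above the highest shCtrl library. The log2 fold change was 0.84 (1.79-fold; adjusted p = 2.63e-05), and the call held under all 15 alternatives. Per length, Vps13c was at 20.6 TPM in shUSP8 and 11.1 TPM in shCtrl. Its locus is on the plus strand of chromosome 9, from 67840396 to 67995638.

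The other VPS13 genes did not pass the test. Vps13d, at 21.2 TPM in shUSP8 and 17.7 TPM in shCtrl, had a log2 fold change of CPM of 0.08 (adjusted p = 0.506) and was called without shUSP8_1 (0.0196). Vps13a had 21.9, 54.7 and 51.5 CPM in shUSP8 and 56.4, 53.1 and 58.4 CPM in shCtrl. For Vps13a, the library shUSP8_1 was far below every other library, and the fitted value was -0.39, SE 0.38, adjusted p = 0.509. Within the shUSP8 group, shUSP8_1 was also lowest for Vps13c, as given above, and for Vps13b and Vps13d. In shUSP8_1, shUSP8_2 and shUSP8_3, Vps13b had 77.5, 104.5 and 93.3 CPM and Vps13d 115.9, 149.7 and 137.5 CPM. Vps13b was at -0.06, and its exons overlap Cox6c on the other strand.

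None of the 5 GARP and EARP genes, whose complexes tether endosome-derived vesicles at the Golgi and at recycling endosomes, was called. Their log2 fold changes ran from -0.08 to 0.12, and Vps51, the most abundant per length at 53.0 TPM in shUSP8 and 51.6 TPM in shCtrl, was at -0.07 in CPM (adjusted p = 0.346). Vps54 passed on log2(TPM + 1) (adjusted p = 0.0369), where it lay 0.15 above the all-gene median. The remaining Vps genes are of unlike function, Vps45 acting on SNAREs, Vps9d1 carrying a domain of RAB activators and Vps72 acting in chromatin remodelling, and none was called. Vps72 was at 105.4 TPM in shUSP8 and 96.6 TPM in shCtrl, with a log2 fold change of CPM of -0.01 (adjusted p = 0.943).

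Sorting nexins share a PX domain that reads phosphoinositides on endosomes. Of 28 tested, 7 rose and 5 fell with TMM factors, 42.9% called against 32.8% of all genes tested. Snx10, needed for bone resorption by osteoclasts, lies on chromosome 6 at 51523901 to 51590679, plus strand, and had 118.3, 121.6 and 115.6 CPM in shUSP8 and 167.1, 162.9 and 168.1 CPM in shCtrl. The libraries of each group lay close together and far from the other group (-0.49, SE 0.05, adjusted p = 8.45e-06). It had the smallest p-value of the set.

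Per length, Snx10 was at 73.7, 89.6 and 85.0 TPM in shUSP8 and 105.0, 95.3 and 92.8 TPM in shCtrl, again without overlap but with a smaller gap. On log2(TPM + 1) the difference was -0.24 (adjusted p = 0.0864), which is not called. With effective-length offsets it was -0.37 (adjusted p = 0.00749). Of the 10 osteoclast markers, 5 fell with TMM factors and 5 did not pass the test, where 14.9% of all genes were called lower (median of the list -0.24, at the summed levels given above). Atp6v0d2 (-0.54), Mmp9 (-0.46), Acp5 (-0.34), Itgb3 (-0.32) and Ctsk (-0.15) fell, Ctsk with a call lost under 12 of the 15 alternatives, each left-out library among them. Ocstamp (0.12) and Nfatc1 (0.01) lay the other way and were not called. Atp6v0d2, a proton pump subunit, was at 757.7 ± 18.7 CPM in shUSP8 and 1102 ± 31.5 CPM in shCtrl. Of the 8 macrophage markers, 4 were called higher and 3 lower, and the part of either list in the Snx10 result was not tested.

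Snx24 had the highest fitted rise of the set. It had 10.8, 10.6 and 10.9 CPM in shUSP8 and 6.13, 4.95 and 5.74 CPM in shCtrl, and no shUSP8 library came near the shCtrl range. The log2 fold change was 0.94 (1.92-fold; adjusted p = 2.75e-05), and the call held under all 15 alternatives. Snx29 moved the other way, with 19.9, 22.0 and 23.5 CPM in shUSP8 and 31.1, 30.2 and 29.1 CPM in shCtrl, without overlap (-0.47, SE 0.07, adjusted p = 0.000441). It lost its call on log2(TPM + 1) (0.0624). Snx27, which couples receptors with a PDZ-binding tail to retromer for recycling, had 107.4, 108.5 and 116.2 CPM in shUSP8 and 91.5, 91.2 and 83.2 CPM in shCtrl. All shUSP8 libraries were higher (0.32, SE 0.06, adjusted p = 0.000957), and the call held under all 15 alternatives.

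Members that bend membranes through a BAR domain were split. Snx6, a partner of Snx1 and Snx2 in tubules that return cargo to the Golgi, was at 52.5 ± 2.85 CPM in shUSP8 and 65.6 ± 2.39 CPM in shCtrl (log2 fold change -0.32, SE 0.06, adjusted p = 0.00116) and lost its call on log2(TPM + 1) (0.0992). These partners were not called, with Snx1 at -0.06 and Snx2 at -0.02, nor was Snx5, a paralogue of Snx6, at 0.07. Snx9, Snx18 and Snx33, which join an SH3 domain to the BAR domain and work with dynamin in endocytosis, were grouped here after their values had been seen, and all of them rose. Snx18 was at 45.8 ± 2.76 CPM in shUSP8 and 37.4 ± 1.25 CPM in shCtrl (0.29, SE 0.06, adjusted p = 0.00397), under all 15 alternatives. Snx33 was at 12.5 ± 1.74 CPM in shUSP8 and 9.25 ± 1.17 CPM in shCtrl (0.43, SE 0.12, adjusted p = 0.0183), with shUSP8_1 inside the shCtrl range. The Snx33 call was lost without shUSP8_2 (0.0522), shUSP8_3 (0.0737), shCtrl_1 (0.079) or shCtrl_2 (0.0847) and with effective-length offsets (0.0587). Snx9 was at 118.5 ± 1.92 CPM in shUSP8 and 107.4 ± 1.23 CPM in shCtrl (0.14, SE 0.05, adjusted p = 0.0334). Its call was lost without shUSP8_2 (0.0667), shUSP8_3 (0.0754), shCtrl_1 (0.119), shCtrl_2 (0.11) or shCtrl_3 (0.0647), with DESeq2 (0.0969), with effective-length offsets (0.171), without the filter on low counts (0.0885) and with the replicate block (0.0699). Snx30, another BAR member, was at 47.0 ± 5.30 CPM in shUSP8 and 36.9 ± 0.840 CPM in shCtrl (0.35, SE 0.08, adjusted p = 0.00497) and lost its call with effective-length offsets (0.101).

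Snx20, which binds the leukocyte adhesion molecule PSGL-1, was at 43.1 ± 1.83 CPM in shUSP8 and 34.1 ± 2.65 CPM in shCtrl (log2 fold change 0.34, SE 0.07, adjusted p = 0.00285), under all 15 alternatives. Snx14, a lipid droplet contact protein mutated in a human cerebellar ataxia, was at 44.0 ± 0.0512 CPM in shUSP8 and 52.3 ± 1.53 CPM in shCtrl (-0.25, SE 0.05, adjusted p = 0.00391) and lost its call on log2(TPM + 1) (0.28). Snx12, close in sequence to Snx3, was at 58.8 ± 3.58 CPM in shUSP8 and 66.9 ± 1.81 CPM in shCtrl (-0.19, SE 0.06, adjusted p = 0.0274) and lost its call without shUSP8_2 (0.0796), shCtrl_1 (0.0811), shCtrl_2 (0.0567) or shCtrl_3 (0.0955), with DESeq2 (0.0569), with library totals (0.152) and on log2(TPM + 1) (0.289). Snx3 itself, a retromer adaptor and the most abundant sorting nexin per length at 146.3 TPM in shUSP8 and 122.7 TPM in shCtrl, was at 0.11 in CPM (adjusted p = 0.131). It passed on log2(TPM + 1) (adjusted p = 0.022), as did Snx5 (0.0348) and Snx7 (0.0206). On that scale, where the all-gene median was 0.11, Snx3, Snx5 and Snx7 lay 0.14, 0.10 and 0.16 above that median. The other sorting nexins not called lay between -0.21 and 0.23. Snx32, at the low end, shares 468 exon bases with the abundant Cfl1 on the opposite strand, so its counts are uncertain.

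Shares within paralogue pairs do not move with library scaling. Of 11 pairs, 5 had TPM shares that did not overlap between groups. For single genes, a different measure, CPM did not overlap between groups in 47.7% of all genes tested. With 3 libraries against 3, the two-sided exact permutation test cannot give a p below 0.1, which each of these 5 reached, or 0.22 adjusted over the 11 pairs. Snx5 took 75.5%, 75.8% and 74.8% in shUSP8 and 68.7%, 70.4% and 70.2% in shCtrl of the summed TPM of Snx5 and Snx6. Snx20 took 80.1%, 80.1% and 80.3% in shUSP8 and 74.7%, 72.8% and 75.1% in shCtrl of its pair with Snx21, though part of the Snx21 exons overlap Acot8. In both pairs the first gene took more in every shUSP8 library than in any shCtrl library.

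Vps26a took 71.4% ± 0.957 in shUSP8 and 67.1% ± 0.829 in shCtrl of its pair with Vps26b (SD, n = 3 each). Chmp1a took 66.9% ± 0.905 in shUSP8 and 63.5% ± 0.407 in shCtrl of its pair with Chmp1b, and Mvb12a took 84.7% ± 0.478 in shUSP8 and 87.9% ± 0.555 in shCtrl of its pair with Mvb12b. The VPS4 pair overlapped, with Vps4a at 41.7%, 36.3% and 38.5% in shUSP8 and 41.6%, 45.9% and 46.4% in shCtrl (exact permutation p = 0.2). Snx10 took 83.8% ± 2.0 in shUSP8 and 86.4% ± 1.14 in shCtrl of its pair with Snx11, with overlap (exact permutation p = 0.2). On shares of expected counts, Vps4a differed by -3.69 percentage points and Snx10 by -2.75, shUSP8 minus shCtrl. Each reached an exact permutation p of 0.1 there, so the overlap in these pairs holds for TPM shares only. The other overlapping pairs had exact permutation p of 0.2 to 0.6 on shares of expected counts.

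**Figure D4:**
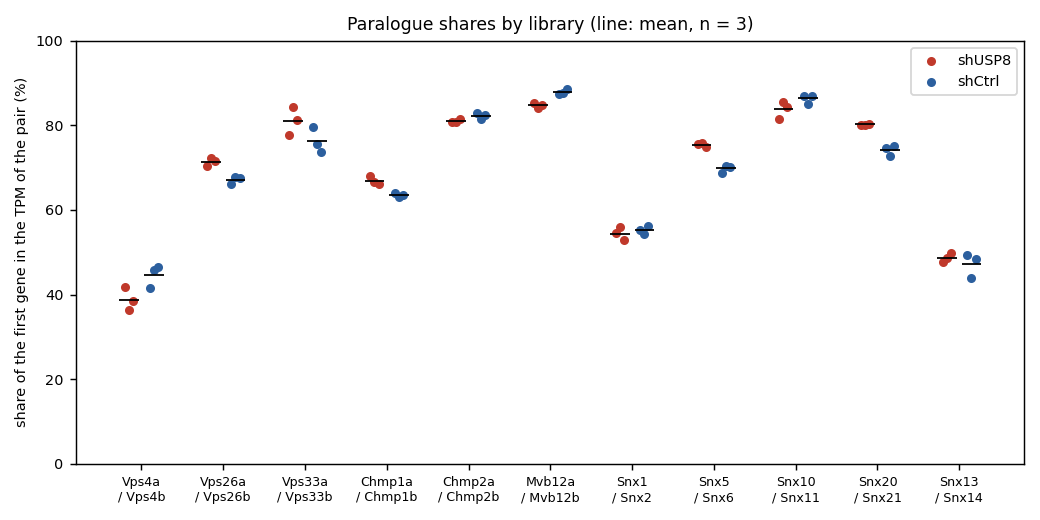
Share of the first gene of each pair in the summed TPM of the pair (vertical axis, percent), by library, shUSP8 in red left of shCtrl in blue, with the mean of 3 libraries as a line. The groups stand apart in 5 pairs, such as Snx20 with Snx21 (80.2% in shUSP8 and 74.2% in shCtrl), and overlap in the others, among them Vps4a with Vps4b.

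Genes of the same pathways outside the symbol rule were read from the same fit. The counts of every list below are read beside the 32.8% of all genes tested that were called. Of 10 ubiquitin adaptors, with the ESCRT-0 subunits that hand cargo to ESCRT-I, 3 were called higher and 5 lower, where 17.8% of all genes were called higher and 14.9% lower. Of the 8 calls, Gga2 was lost under 13 of the 15 alternatives, Stam under 10, Gga3 under 8, Tom1l1 under 7 and Tom1l2 under 3. Hgs, the ESCRT-0 scaffold, was at 127.7 ± 2.10 CPM in shUSP8 and 102.7 ± 1.89 CPM in shCtrl (log2 fold change 0.31, SE 0.05, adjusted p = 0.000269). Stam2, its partner and a protein that USP8 binds, was at 0.25 (adjusted p = 0.00228), a call lost with effective-length offsets (0.0564). Tollip, an adaptor of Toll and interleukin receptors, was at -0.43 (adjusted p = 0.000131). Of 9 other ESCRT regulators tested, 2 rose, Rnf115, a ubiquitin ligase, at 0.24 and Ptpn23, an ALIX relative, at 0.20. The Ptpn23 call did not hold without shUSP8_3 (0.0551), shCtrl_1 (0.0513) or shCtrl_3 (0.0642).

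Of 6 genes of the VPS34 lipid kinase complexes, Becn1 (-0.22) and Nrbf2 (-0.17) fell with TMM factors and were not called with library totals or on log2(TPM + 1). Nrbf2 also lost its call with every library left out except shUSP8_2, at adjusted p from 0.0604 to 0.191. Of 10 partners of HOPS, CORVET and RAB7, 2 rose and 3 fell, with Plekhm2, which links lysosomes to kinesin, at 0.34 (adjusted p = 0.000441), Mon1a at 0.31 and Arl8b at -0.21. Mon1a lost its call without shUSP8_2 (0.0512), shCtrl_1 (0.0698), shCtrl_2 (0.0687) or shCtrl_3 (0.0529) and with DESeq2 (0.147), and Arl8b with library totals (0.0611) and on log2(TPM + 1) (0.21). Of 18 WASH and commander genes tested, 2 rose and 2 fell, with Commd6 at -0.55 (adjusted p = 3.79e-05), Commd4 at -0.30 and Ccdc93 at 0.29. Commd4 lost its call on log2(TPM + 1) (0.0664).

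Of 8 sorting receptors and cargo proteins, 2 rose and none fell. Sorl1, a receptor that retromer recycles, was at 8.05 ± 1.15 CPM in shUSP8 and 0.799 ± 0.0691 CPM in shCtrl (log2 fold change 3.33, SE 0.18, adjusted p = 3.35e-08), and Sort1 was at 0.49. The mannose 6-phosphate receptors, which carry hydrolases to lysosomes, were not called, with Igf2r at 0.11 (adjusted p = 0.271) and M6pr at 0.01 (adjusted p = 0.844).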

How the data were processed

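RNA was sequenced from 6 libraries, 3 per group. The authors deposited a table of expected counts per gene, which are estimates and need not be whole (7.16% were not), and a table of TPM, which divides by effective length and scales each library to the same sum. Both tables name their columns KO and WT with a number. KO was read as shUSP8, the only genotype besides the control in the labels. Per the submitters' processing notes, the build mm10 and the tools RSEM and DESeq2 1.28.1 were used, whose roles the notes do not give. The aligner and the annotation release are not given in the sources used here. Of 142604 transcript names in the deposited table, 98.7% were found in GENCODE M21 (GRCm38), which gave coordinates and exon overlaps.

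The deposited expected counts were rounded and filtered with filterByExpr (minimum count 10, minimum total 15), scaled with TMM factors and tested with edgeR 4.0.16 (quasi-likelihood test, R 4.3.3), with Benjamini-Hochberg adjustment over all 12440 genes. SE is |log2 fold change| over the root of the F statistic. Alternatives used RLE factors, library totals, no filter, DESeq2 1.42.0, limma 3.58.1 (voom, and log2 of the authors' TPM with a pseudocount of 1 or 0.1), effective-length offsets, a fit with a replicate block and fits lacking 1 library each. The edgeR fit with TMM factors, DESeq2, voom, effective-length offsets and log2(TPM + 1) were tried on simulated data, with outcomes not given here. The remaining alternatives and the permutation test were not tried in this way. Replicate numbers did not pair the libraries. All libraries of a group differed by more than counting noise. Counts limit the precision, and the floor of 3 counts covers counting error only. The genes named are Usp8, every called member, the uncalled member highest in TPM of each complex, Tsg101, Vps35 and Vps4b, and up to 3 called genes by smallest p of each pathway list. Others named were chosen after their values were seen. Members, lists and alternatives were chosen with earlier results of these data known.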

Additional observations from a re-analysis of the deposited data

How the results depend on the processing

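Of 825 values for the 55 tested members whose fold changes or calls the text gives, 27 called and the others not, under 15 alternatives, 655 kept direction and side of the threshold, 91 lost the call, 14 gained one and 65 changed sign. The number of members called, 27, fell to 17 on log2(TPM + 1) and on log2(TPM + 0.1) and ran from 17 to 28 with 1 library left out. Among called members, 2 values changed sign, both of Chmp3, at 0.0298 on log2(TPM + 1) and 0.0301 on log2(TPM + 0.1). Among those not called, the same 2 scales gave a changed sign with 0.0986 and 0.0991 for Chmp4b, 0.0787 and 0.0793 for Pdcd6ip, 0.0687 and 0.0695 for Snx1, 0.1155 and 0.1171 for Snx2, 0.041 and 0.0459 for Snx32, 0.0042 and 0.0042 for Vps11, 0.0995 and 0.1084 for Vps13b, 0.1563 and 0.1579 for Vps28, 0.1616 and 0.163 for Vps29, 0.0427 and 0.0432 for Vps35, 0.0851 and 0.0908 for Vps36, 0.0812 and 0.0833 for Vps41, 0.0299 and 0.0302 for Vps51, and 0.1265 and 0.1276 for Vps72. Library totals gave 0.0234 for Chmp4b, 0.0195 for Pdcd6ip, 0.018 for Snx1, 0.0539 for Snx2, 0.0138 for Vps13b, 0.0726 for Vps28, 0.0296 for Vps29, 0.0263 for Vps36, 0.0453 for Vps41, 0.004 for Vps51, 0.0678 for Vps72 and 0.0447 for Vps8. Effective-length offsets gave -0.002 for Vps16, 0.0289 for Vps28 and 0.0338 for Vps29. With 1 library left out, those whose sign changed ran from -0.0816 to 0.0094 (Chmp4b), -0.0305 to 0.0631 (Mvb12a), -0.0367 to 0.002 (Snx2), -0.1656 to 0.0476 (Vps13b), -0.0044 to 0.178 (Vps13d), -0.0079 to 0.0517 (Vps16), -0.0622 to 0.0309 (Vps28), -0.0796 to 0.0149 (Vps36), -0.0256 to 0.0839 (Vps37a), -0.0573 to 0.0073 (Vps41), -0.0071 to 0.0461 (Vps4b) and -0.0326 to 0.0106 (Vps72). The share of Snx13 in its pair with Snx14 differed by -0.174 to 2.449 percentage points with 1 library left out. The causes were not tested, beyond the all-gene shifts of 0.11 and 0.07 given for the TPM scale and library totals. Same-numbered libraries did not deviate together (r of -0.007, 0.078 and -0.054), and with the replicate block 25 members were called, losing Snx9 (0.0699) and Vps26c (0.0555).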
